A study of Mus musculus with 96 samples.

Results

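Oligomycin was compared with its solvent DMSO in C2C12 myotubes kept in 5% oxygen on both sides of the comparison. The comparison takes 3 samples labelled Tubes_Hyp_Oligo_None and 3 labelled Tubes_Hyp_DMSO_None, chosen by their labels, which are 6 of the 96 RNA-seq samples of the series. C2C12 is a mouse myoblast line that fuses into multinucleated myotubes when serum is withdrawn. All 6 were myotubes differentiated for 4 days in low serum, and they expressed no added protein. Per the methods they spent the night before treatment and the 10 h of treatment at 5% oxygen, and oligomycin was used at 1 µM. The same pair of groups in the standard incubator, Tubes_Oligo_None and Tubes_DMSO_None with 3 samples each, served to show where the response in 5% oxygen differed. In the study this arm addresses whether the stress response of myotubes to blocked ATP synthase depends on hyperpolarization of the inner membrane, a raised voltage across it, with low oxygen as a way to limit the electron transport that still runs. A line has a single genetic background, and the labels do not say whether replicates were separate cultures. All p-values therefore measure only the spread between samples of a group, which may be technical. That spread was estimated over 27 untransduced myotube samples of 9 groups, which include those compared here.

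Oligomycin binds the membrane ring of the mitochondrial ATP synthase and stops the proton flow that drives ATP synthesis. The integrated stress response (ISR) is a pathway in which kinases phosphorylate eIF2 alpha, general translation falls, and the transcription factor ATF4 is made from its own mRNA and switches on genes for amino acid supply, tRNA charging and stress control. Hypoxia-inducible factor (HIF) is a second transcription factor system. Its alpha subunits are marked for destruction by prolyl hydroxylases that need oxygen, so when oxygen falls HIF accumulates and raises genes for glycolysis, glucose uptake, vessel growth and mitochondrial turnover. The 13 proteins encoded by mitochondrial DNA are subunits of complexes I, III and IV and of ATP synthase itself.

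Promoters of genes that the results turn on are shown from 250 bases before to 50 bases after the annotated start (RefSeq, GRCm38.p6), 5′ to 3′ on the gene's own strand. The first 3 belong to genes of the ISR that were higher with oligomycin in 5% oxygen. Capitals mark TGATGNAA, the core of the element that dimers of ATF4 and C/EBP proteins bind. In these windows the match is on the opposite strand, so the capitals read as its reverse complement.
Atf3 (chr1:191183284-191183583, minus strand): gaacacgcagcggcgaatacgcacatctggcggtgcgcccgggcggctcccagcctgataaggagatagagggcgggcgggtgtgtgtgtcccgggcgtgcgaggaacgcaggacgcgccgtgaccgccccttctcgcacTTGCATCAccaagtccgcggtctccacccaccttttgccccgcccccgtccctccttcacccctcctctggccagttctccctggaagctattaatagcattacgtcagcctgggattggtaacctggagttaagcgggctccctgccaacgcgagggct
Trib3 (chr2:152344011-152344310, minus strand): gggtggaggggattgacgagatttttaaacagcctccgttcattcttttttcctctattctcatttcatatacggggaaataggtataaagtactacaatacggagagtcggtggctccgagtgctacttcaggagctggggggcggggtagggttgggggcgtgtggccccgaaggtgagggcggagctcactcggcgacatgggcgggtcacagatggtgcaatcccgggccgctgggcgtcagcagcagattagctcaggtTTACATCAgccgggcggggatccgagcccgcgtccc
Fgf21 (chr7:45615441-45615740, minus strand): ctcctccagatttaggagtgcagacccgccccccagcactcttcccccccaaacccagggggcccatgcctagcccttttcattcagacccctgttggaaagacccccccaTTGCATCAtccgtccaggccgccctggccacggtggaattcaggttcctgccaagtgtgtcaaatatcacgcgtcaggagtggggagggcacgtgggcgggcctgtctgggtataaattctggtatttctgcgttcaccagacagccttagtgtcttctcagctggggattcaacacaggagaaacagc
The next 3 belong to HIF target genes that were lower with oligomycin in 5% oxygen. Capitals mark ACGTG, the core that HIF binds, on the strand shown, and the search covered both strands.
P4ha2 (chr11:54100674-54100973, plus strand): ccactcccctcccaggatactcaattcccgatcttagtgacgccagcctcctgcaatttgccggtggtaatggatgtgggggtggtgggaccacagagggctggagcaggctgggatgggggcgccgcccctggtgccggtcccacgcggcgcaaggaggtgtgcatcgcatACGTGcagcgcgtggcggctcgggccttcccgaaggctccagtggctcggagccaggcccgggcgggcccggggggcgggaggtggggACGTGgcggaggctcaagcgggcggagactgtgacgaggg
Egln3 (chr12:54203825-54204124, minus strand): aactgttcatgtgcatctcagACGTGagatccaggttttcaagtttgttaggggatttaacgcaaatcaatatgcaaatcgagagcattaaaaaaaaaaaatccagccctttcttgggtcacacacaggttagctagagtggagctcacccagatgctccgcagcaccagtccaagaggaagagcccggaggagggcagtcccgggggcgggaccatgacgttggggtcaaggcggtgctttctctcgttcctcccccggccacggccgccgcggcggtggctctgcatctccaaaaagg
Ankrd37 (chr8:45999801-46000100, minus strand): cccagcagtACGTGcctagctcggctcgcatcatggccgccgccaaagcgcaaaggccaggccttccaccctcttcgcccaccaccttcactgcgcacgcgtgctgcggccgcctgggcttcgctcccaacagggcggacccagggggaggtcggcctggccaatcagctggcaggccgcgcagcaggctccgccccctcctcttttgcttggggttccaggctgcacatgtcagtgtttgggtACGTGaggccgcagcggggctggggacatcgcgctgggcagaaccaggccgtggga
Among all 32851 promoter windows of this length, 4.0% held TGATGNAA and 19.6% held ACGTG on either strand. Of the 58 tested genes in the ISR lists 45 matched a promoter, and 16 of their 54 windows (29.6%) held TGATGNAA. Of the 18 HIF targets 15 matched, and 13 of their 21 windows (61.9%) held ACGTG, against 21 of 54 windows (38.9%) for the ISR lists. These letters are descriptions of the sequence, and no binding was measured.

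The 6 libraries held 8661421 to 11835417 estimated counts each, and 12491 genes passed the filter, for which all replicates of some group had to hold 16 counts or more. Levels are given as counts scaled to 1000000 per library after TMM correction of library size (CPM), folds as each sample relative to the mean of the DMSO samples at the same oxygen level, and log2 fold changes with their standard error (SE) from edgeR. Replicate 3 of both groups stood apart from replicates 1 and 2 on the third principal component, which held 10.4% of the variance over the 12 samples at both oxygen levels. On the first component (37.3%) replicate 3 lay at 22.9 against 31.7 and 35.4 in DMSO, and at 6.58 against 22.6 and 20.3 in oligomycin. On the second (17.8%) it lay at -19.9 and -22.9, against -7.96 to -2.68 in the other 4 samples. In replicate 3 of DMSO and oligomycin 11 predicted gene models summed to 5259 and 3911 CPM. Their sums were 597.7 to 1675 CPM in the other 4 samples and 712.6 to 3605 CPM in the 6 samples of the standard incubator. The calls that were lost without them are named with the overall counts. Summed myotube marker transcripts ran from 18290 to 19010 CPM in DMSO and from 18600 to 19220 CPM in oligomycin, and the 8 markers, among them Myh3, Ckm and Ttn, were detected. Markers of undifferentiated and reserve cells summed to 115.5 to 119.3 CPM in DMSO and 128.8 to 131.9 CPM in oligomycin. These 8 genes all passed the filter, and 1 (Myf5) was higher. The sums were higher in the standard incubator, at 180.1 to 208.7 CPM in DMSO and 221.4 to 222.7 CPM with oligomycin. In DMSO 5 of these 8 markers were lower and 1 higher in 5% than in standard oxygen, against 9.78% and 12.3% of all genes (median log2 fold change -1.0), and 15 of 15 proliferation genes were lower (median -2.30). The part of these marker levels in the results below, differences between oxygen levels included, was not tested, and in bulk RNA a change in the number of cells of a type cannot be told apart from a change in RNA per cell. The labels give each sample a code whose meaning they do not state. Its number is 9 in these 6 samples and 6 to 8 in the 6 samples of the standard incubator compared with them, so among these 12 samples code and oxygen level cannot be told apart.

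In 5% oxygen oligomycin changed 532 of 12491 genes (4.26%), 255 higher (2.04%) and 277 lower (2.22%), by edgeR's quasi-likelihood test with Benjamini-Hochberg adjustment at 0.05. The changes were small: 40 of the 532 genes moved at least 2-fold, 29 higher and 11 lower. ISR genes were among the largest increases, led by Atf3, Trib3 and Gdf15. The lower genes included many targets of HIF and most glycolytic enzymes, with Car12, Ctgf and Vwa1 among the most reduced. Of 13 transcripts encoded by mitochondrial DNA 9 rose. In the standard incubator the same inhibitor changed 4164 genes (33.3%), 2117 higher (16.9%) and 2047 lower (16.4%), with 717 at least 2-fold. The count in 5% oxygen fell to 300 genes, 125 higher and 175 lower, when replicate 3 of both groups was left out, to 263, 99 higher and 164 lower, when only these 6 samples were fitted, and to between 367 and 411 when single libraries were left out. Of the genes named here, 19 lost their call in 5% oxygen without replicate 3 of both groups: Sesn2, Tars2, Ankrd37, Vegfa, Slc2a1, mt-Nd3, mt-Nd5, Atp5g1, Ndufs8, Herpud1, Jun, Cdkn1a, Cdk1, Myh4, Myo19, Edn1, Cdh23, Car6 and Cdsn, at edgeR adjusted p between 0.0578 and 0.382. The interactions of P4ha2, Pkm, mt-Co2, Cdk1 and Myo19 were lost as well, at 0.0555 to 0.0891. Fitting only the 6 samples also ended 19 calls in 5% oxygen, those of Sesn2, Tars2, mt-Nd5, Atp5g1, Ndufs8, Herpud1, Cdk1, Myo19, Cdh23 and Cdsn among them, and those of Aldh1l2, Yars2, Htra2, Egr1, Myf5, Sqle, Hopx, Galr2 and Nrn1.

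**Figure D1:**
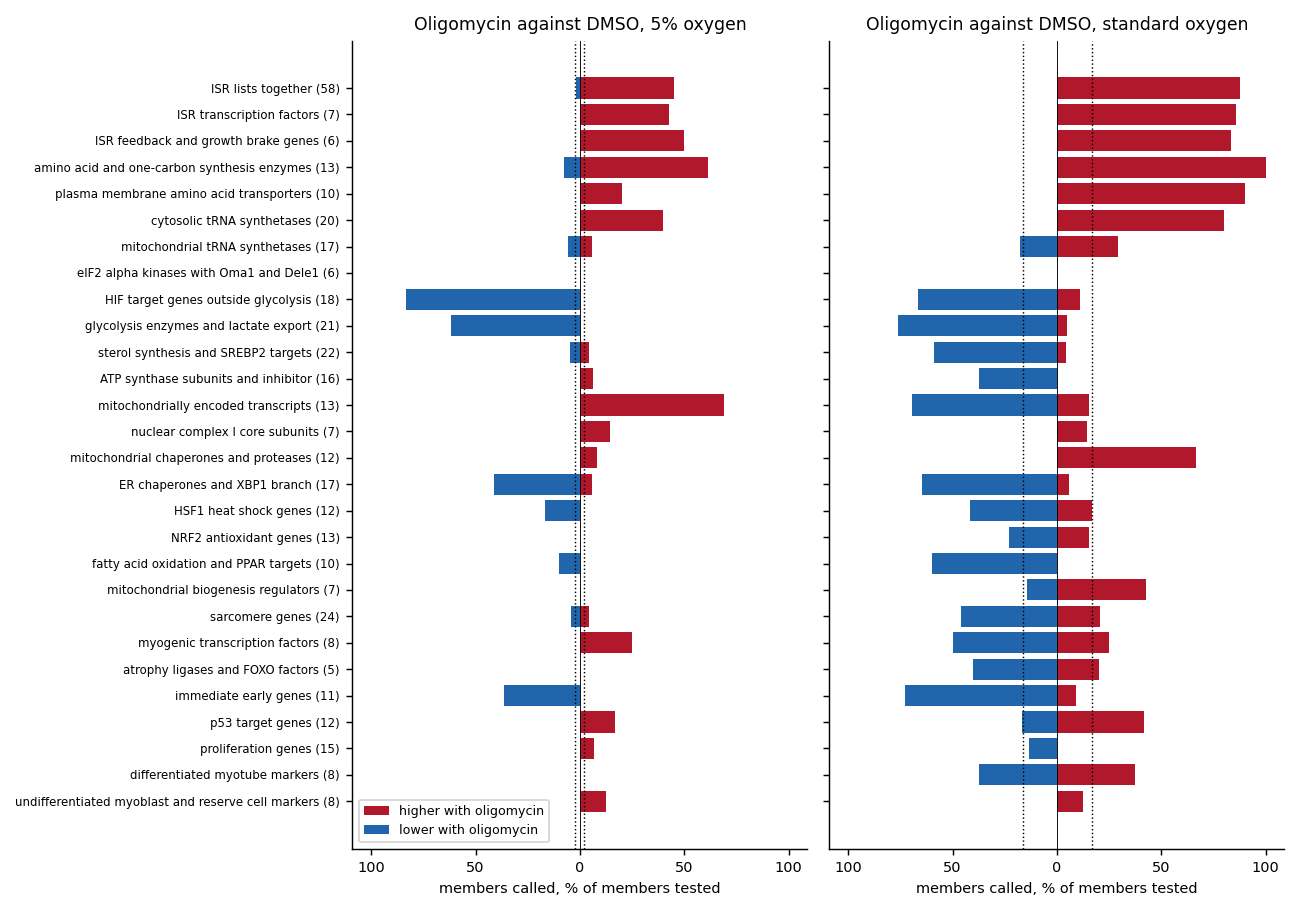
Share of the tested members of the gene lists with 5 or more tested members (number tested in brackets) that passed the edgeR test at an adjusted p of 0.05, higher with oligomycin to the right and lower to the left, in 5% oxygen and in standard oxygen; dotted lines give the share over all 12491 genes. In 5% oxygen HIF targets (15 of 18) and glycolysis genes (13 of 21) lie on the lower side, and ISR lists and mitochondrially encoded transcripts (9 of 13) on the higher side.

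The ISR was raised weakly and unevenly. Of the 58 tested members of the ISR lists 26 rose, 1 fell and 31 did not pass the test. Of all genes 2.04% rose and 2.22% fell. The median log2 fold change of the 58 was 0.23 beside 0.00 over all genes. The values of 36 members did not overlap between the groups in the higher direction, against 9.64% of all genes, and those of 5 did not overlap in the lower direction, against 9.74%. In the standard incubator 51 rose and 0 fell by edgeR, against 16.9% and 16.4% of all genes. At an unadjusted p under 0.05 the counts there were 52 and 0, and the median was 1.23. The log2 fold change was smaller in 5% oxygen for 56 of the 58 genes, and the interaction of oligomycin and oxygen was called lower for 48 of them and higher for 0, against 9.56% and 7.87% of all genes. The DMSO level itself differed between the oxygen levels, with 17 of the 58 genes higher and 2 lower in 5% oxygen, against 12.3% and 9.78% of all genes, so a fold in 5% oxygen starts from another baseline. Cebpb, Cbs and Slc7a3 had at most 9 counts in any of the 6 samples and were not tested. Without replicate 3 of both groups 20 members rose and 1 fell, and the interaction was lower for 48.

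Among the ISR transcription factors, Atf4, the central activator, read 215, 199.9 and 198 CPM in the 3 DMSO samples and 248, 255 and 279 CPM in the 3 oligomycin samples. The groups did not overlap, and the rise was 1.27-fold ± 0.0801 (SD, n = 3), with an adjusted p of 1.85e-05 (edgeR). Atf3 (chromosome 1, 191170296 to 191218039, GRCm38), a repressor and activator made in many stress states, read 5.38, 4.92 and 4.02 CPM in DMSO and 11.8, 15.1 and 17.8 CPM in oligomycin. It had the largest fold of the ISR genes at 3.12 ± 0.631 (SD, n = 3), 1.65 on the log2 scale (SE 0.17; edgeR adjusted p = 7.82e-07). Ddit3 (chromosome 10, 127290774 to 127296288), which encodes the pro-apoptotic factor CHOP, stood at 26.7, 25.6 and 28.3 CPM in DMSO and at 45.2, 46.3 and 51.4 CPM in oligomycin. This was 1.77-fold ± 0.123 (SD, n = 3; edgeR adjusted p = 4.18e-07), and every oligomycin sample lay above every DMSO sample. The rise in the standard incubator was 3.22-fold ± 0.118 for Atf4, 49.6-fold ± 1.21 for Atf3 and 16.6-fold ± 0.124 for Ddit3 (SD, n = 3 each). Nupr1, a small stress-induced chromatin protein, and Cebpg, a partner of ATF4, did not pass in 5% oxygen, with log2 fold changes of 0.07 (SE 0.08) and -0.10 (SE 0.16) against 1.56 and 1.25 in the standard incubator. The interaction passed for all 5 of these factors, with log2 differences of -1.34 for Atf4, -3.98 for Atf3, -3.23 for Ddit3, -1.49 for Nupr1 and -1.34 for Cebpg.

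**Figure D2:**
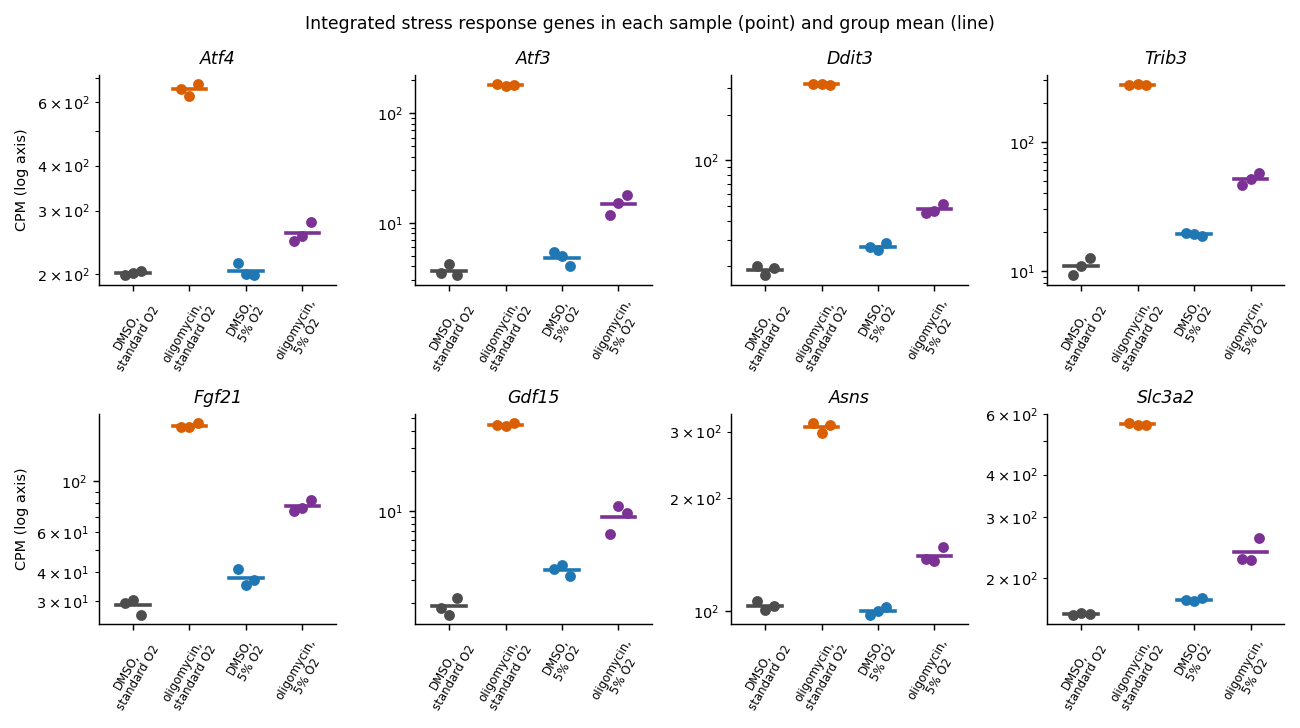
Level of 8 ISR genes in CPM on a log axis, 1 point per sample and a line at the group mean, for DMSO and oligomycin in standard oxygen and in 5% oxygen. In 5% oxygen each oligomycin group lies above its DMSO group, for example Atf3 at 11.8 to 17.8 against 4.02 to 5.38 CPM, and far below the oligomycin group in standard oxygen, at 176 to 184 CPM.

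The feedback and growth brake genes divided. Trib3, a pseudokinase that dampens ATF4 and CHOP, read 19.9, 19.4 and 18.5 CPM in DMSO and 46.4, 51.3 and 57 CPM in oligomycin, 2.68-fold ± 0.275 (SD, n = 3), with the smallest adjusted p of the ISR genes, 3.14e-10 (edgeR). Chac1, which degrades glutathione, rose 1.49-fold ± 0.190 (SD, n = 3; edgeR adjusted p = 0.000306). Sesn2, a stress-induced inhibitor of mTORC1 signalling, rose 1.39-fold ± 0.0915 (SD, n = 3; edgeR adjusted p = 0.0151). The Sesn2 call was lost without replicate 2 of oligomycin or replicate 1 of DMSO, with adjusted p up to 0.0905 over the single libraries left out and 0.0578 without replicate 3 of both groups. Ppp1r15a, the subunit that directs the phosphatase to eIF2 alpha and so ends the response, did not pass at 34.6, 39.6 and 38.3 CPM in DMSO and 39.9, 44.7 and 43.7 CPM in oligomycin. It rose 9.38-fold ± 0.167 (SD, n = 3) in the standard incubator. Eif4ebp1, a repressor of cap-dependent translation, was level at 197, 197 and 197 CPM in DMSO and 198, 198 and 203 CPM in oligomycin. It rose 2.46-fold ± 0.0824 (SD, n = 3) in the standard incubator, where its DMSO level was lower, at 129.7, 124 and 116 CPM. All 6 feedback genes were higher in 5% than in standard oxygen in DMSO, Eif4ebp1 by 1.60-fold ± 0.00123 and Trib3 by 1.76-fold ± 0.0624 (SD, n = 3 each). Ddit4, another mTORC1 inhibitor and also a HIF target, had a log2 fold change of -0.57 (SE 0.23) and did not pass in either oxygen level.

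Both secreted mitokines rose. Fgf21 (chromosome 7, 45613886 to 45615490), a hormone of systemic metabolism, read 41.6, 35.2 and 37.2 CPM in DMSO and 73.8, 76.6 and 82.9 CPM in oligomycin. This was 2.05-fold ± 0.122 (SD, n = 3; edgeR adjusted p = 1.76e-08), against 6.09-fold ± 0.128 in the standard incubator. Gdf15 (chromosome 8, 70629393 to 70632456), a hormone that reduces appetite, was low in every sample, at 3.59, 3.88 and 3.23 CPM in DMSO and 6.61, 10.8 and 9.56 CPM in oligomycin. The groups did not overlap, and the fold was 2.52 ± 0.605 (SD, n = 3; edgeR adjusted p = 7.87e-05) against 23.8 ± 0.457 in the standard incubator. The interaction was -1.57 for Fgf21 and -3.23 for Gdf15 on the log2 scale, with edgeR adjusted p of 3.65e-10 and 7.72e-09.

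Of the 13 tested enzymes of amino acid and one-carbon synthesis 8 rose, 1 fell and 4 did not pass. Asns, which makes asparagine, read 97.7, 100.2 and 102 CPM in DMSO and 138, 136 and 148 CPM in oligomycin, 1.40-fold ± 0.0672 (SD, n = 3). Of serine synthesis, Phgdh rose 1.33-fold ± 0.0745 and Psat1 1.37-fold ± 0.00600 (SD, n = 3 each), while Psph, the last enzyme of that route, did not pass. The mitochondrial folate enzymes Mthfd2, Shmt2 and Aldh1l2 rose 1.50-fold ± 0.0864, 1.34-fold ± 0.0768 and 1.31-fold ± 0.0824 (SD, n = 3 each). Of the enzymes named here Psat1 had the response closest to that in the standard incubator, at log2 fold changes of 0.45 and 0.72 with an interaction of -0.27 (edgeR adjusted p = 0.00703). Cth, which makes cysteine from cystathionine, read 2.75, 3.21 and 2.88 CPM in DMSO and 5.84, 3.88 and 5.38 CPM in oligomycin, a separation that did not pass (edgeR adjusted p = 0.0711). It passed when replicate 2 of oligomycin was left out, at 0.0438. Cth rose 15.3-fold ± 0.689 (SD, n = 3) in the standard incubator.

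Mthfd1l, the mitochondrial enzyme that releases formate, went the other way. It read 75.8, 72.2 and 83 CPM in DMSO and 51.7, 52.2 and 55 CPM in oligomycin, or -0.54 on the log2 scale (SE 0.09; edgeR adjusted p = 0.000366). Its values in the standard incubator were 21.6, 23 and 25.7 CPM in DMSO and 59.3, 53 and 57.2 CPM in oligomycin, a rise of 1.27 on the log2 scale. The oligomycin samples at both oxygen levels thus lay between 51.7 and 59.3 CPM, and the DMSO samples were 3.29-fold ± 0.235 (SD, n = 3) higher in 5% oxygen. Its interaction was -1.81 (edgeR adjusted p = 2.14e-10).

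Of the 10 tested plasma membrane amino acid transporters 2 rose and 8 did not pass. Slc3a2, the heavy chain shared by several exchangers, read 172, 171 and 175 CPM in DMSO and 227, 225 and 261 CPM in oligomycin (1.38-fold ± 0.118, SD, n = 3). Slc6a9, a glycine transporter, was at 14.6, 18.4 and 20.7 CPM in DMSO and at 34.9, 36.1 and 33.1 CPM in oligomycin (1.94-fold ± 0.0853, SD, n = 3). Of these transporters 9 rose in the standard incubator. Of the 20 cytosolic tRNA synthetases, which charge tRNAs with their amino acids, 8 rose in 5% oxygen and 16 in the standard incubator. Wars rose 1.27-fold ± 0.0281 and Gars 1.22-fold ± 0.0368 (SD, n = 3 each). The count of 8 fell to 4 without replicate 3 of both groups and to between 5 and 7 without single libraries. None of the 6 genes for the eIF2 alpha kinases and the mitochondrial relay proteins Oma1 and Dele1 was called by edgeR in 5% oxygen, in the standard incubator or for the interaction. At an unadjusted p under 0.05 the counts were 0, 1 and 0, and DESeq2's Wald test called 0 in 5% oxygen and 0 for the interaction. Of the 17 mitochondrial tRNA synthetases 1 rose (Tars2) and 1 fell (Yars2), against 2.04% and 2.22% of all genes. Both calls were lost without replicate 1 of DMSO, that of Tars2 also without replicate 3 and that of Yars2 without replicate 1 or 2 of oligomycin.

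**Figure D3:**
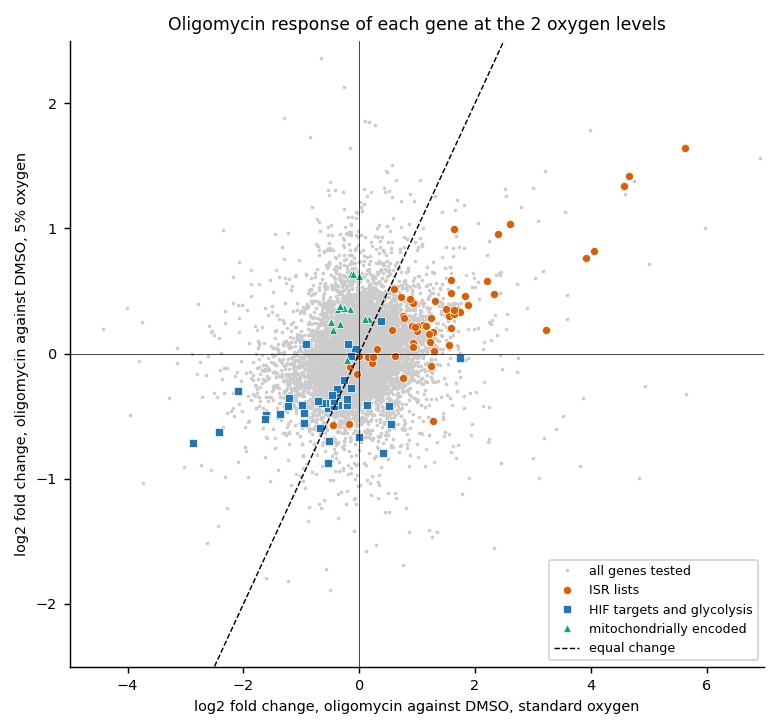
Log2 fold change of oligomycin against DMSO in 5% oxygen (vertical) and in standard oxygen (horizontal) for each tested gene, with the ISR, HIF target, glycolysis and mitochondrially encoded lists in colour; the dashed line marks equal change and 14 genes lie outside the axes. Of 58 ISR genes 53 lie to the right of zero and 56 below the dashed line, with medians of 0.23 and 1.23, and 12 of the 13 mitochondrially encoded transcripts lie above zero on the vertical axis with a median of 0.36.

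Most HIF targets outside glycolysis fell with oligomycin in 5% oxygen. Of the 18 genes 15 fell, 0 rose and 3 did not pass by edgeR, with a median log2 fold change of -0.48. Of all genes 2.22% fell and 2.04% rose. DESeq2's Wald test called 16 lower and 0 higher, and at an unadjusted p under 0.05 edgeR gave 18 lower and 0 higher. In all 18 the oligomycin samples lay below the DMSO samples, an ordering found in 9.74% of all genes. The same 18 genes rose with 5% oxygen itself in DMSO, by a median of 1.80 on the log2 scale, where 22.1% of all genes were called, 12.3% higher and 9.78% lower. The comparison of oxygen levels in DMSO and that of oligomycin in 5% oxygen share the 3 DMSO samples in 5% oxygen, so these values are given side by side only. Leaving out replicate 3 of both groups reduced the 15 to 10, with a median of -0.46, and leaving out single libraries gave 11 to 13.

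P4ha2, a subunit of collagen prolyl hydroxylase, fell the most, from 364, 329.8 and 353 CPM in DMSO to 197, 196 and 180.2 CPM in oligomycin. The fold was 0.547 ± 0.0265 (SD, n = 3; edgeR adjusted p = 2.74e-09). Egln3, one of the prolyl hydroxylases that mark HIF itself, read 479, 465 and 489 CPM in DMSO and 304, 296 and 281 CPM in oligomycin, 0.615-fold ± 0.0253 (SD, n = 3; edgeR adjusted p = 2.6e-07). Both genes were still above the DMSO samples of the standard incubator, which read 89.8 to 112 CPM for P4ha2 and 99.7 to 123 CPM for Egln3. Ndrg1, a stress and differentiation gene, fell to 0.629 ± 0.0151 (SD, n = 3) of DMSO. Bnip3, a receptor for the removal of mitochondria, read 1042, 1085 and 1101 CPM in DMSO and 780.4, 802 and 724 CPM in oligomycin, a fold of 0.714 ± 0.0373 (SD, n = 3). Ankrd37, an ankyrin-repeat protein, read 48.6, 50.5 and 42 CPM in DMSO and 33, 31.4 and 27.1 CPM in oligomycin, with an edgeR adjusted p of 0.0239. Its call was lost without replicate 2 or 3 of oligomycin or without replicate 1 or 2 of DMSO, with adjusted p between 0.0271 and 0.114.

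The angiogenic factor Vegfa read 11.7, 12 and 12.6 CPM in DMSO and 7.05, 7.04 and 6.81 CPM in oligomycin, a fold of 0.576 ± 0.0113 (SD, n = 3; edgeR adjusted p = 0.0168). The groups were well apart, but its adjusted p lay between 0.0405 and 0.0626 without single libraries, with the call lost without any of the 3 oligomycin libraries or replicate 3 of DMSO, and at 0.144 without replicate 3 of both groups. Ero1l, the oxidase of disulfide formation in the endoplasmic reticulum, fell to 0.677 ± 0.0492 and Slc2a1, the glucose transporter GLUT1, to 0.747 ± 0.00352 of DMSO (SD, n = 3 each). The Slc2a1 call was lost without replicate 3 of both groups (edgeR adjusted p = 0.0844). The 3 genes that did not pass were Egln1, Car9 and Mxi1. Car9, a carbonic anhydrase on the cell surface, read 371, 342 and 379 CPM in DMSO and 259, 278 and 283 CPM in oligomycin, and its log2 fold change of -0.41 had an SE of 0.17.

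In the standard incubator 12 of the 18 HIF targets fell and 2 rose, against 16.4% and 16.9% of all genes, and 11 fell at both oxygen levels. The interaction was called higher for 5 and lower for 5, against 7.87% and 9.56% of all genes, so the list did not share a direction of difference. Ndrg1, Vegfa, Ero1l and Slc2a1 had the lower interactions named here (-0.66, -1.21, -1.10 and -0.93) and log2 fold changes of -0.01, 0.42, 0.54 and 0.51 in the standard incubator. P4ha2 fell more in 5% oxygen as well, by an interaction of -0.32 that did not pass without replicate 3 of both groups (edgeR adjusted p = 0.0131 and 0.0655). Bnip3 and Ankrd37 had higher interactions of 0.88 and 1.81 and fell further in the standard incubator, by 1.36 and 2.43 on the log2 scale. Egln3 fell by 0.70 in 5% oxygen and by 0.52 in the standard incubator, a difference that did not pass (interaction -0.18, SE 0.09, edgeR adjusted p = 0.2).

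**Figure D4:**
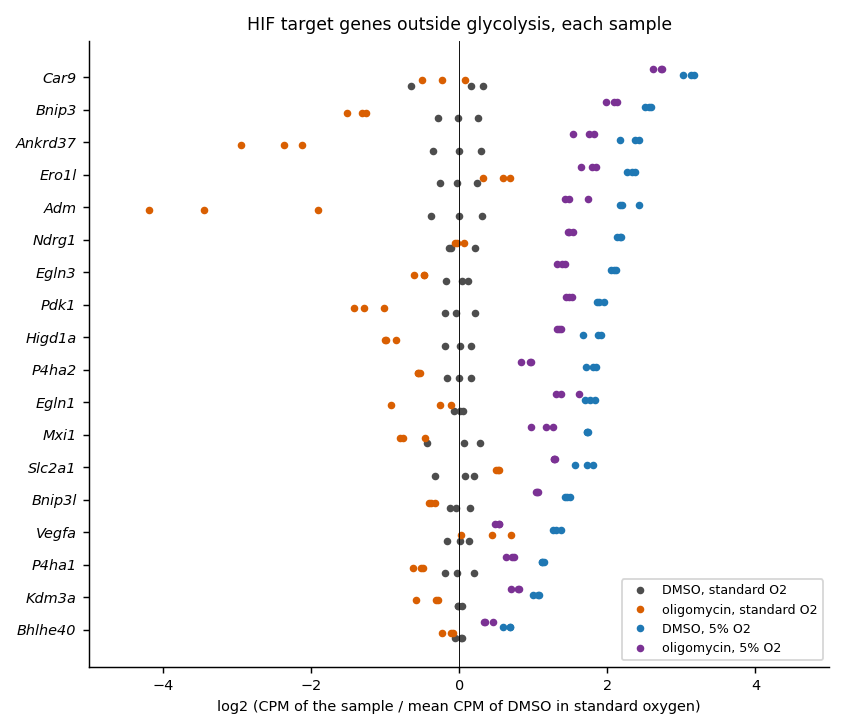
Level of the 18 HIF target genes outside glycolysis in each sample as log2 of its CPM over the mean CPM of DMSO in standard oxygen, 1 point per sample and 1 colour per group. In 5% oxygen the oligomycin points lie below the DMSO points for all 18 genes, by a median log2 fold change of -0.48.

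Most glycolytic genes fell as well. Of 21 genes 13 fell, 0 rose and 8 did not pass, with a median log2 fold change of -0.36. Of all genes 2.22% fell and 2.04% rose. DESeq2's Wald test called 15 lower and 0 higher, as many as edgeR at an unadjusted p under 0.05, and without replicate 3 of both groups 12 fell by edgeR. Ldha, which reduces pyruvate to lactate, read 2968, 2962 and 2907 CPM in DMSO and 2198, 2230 and 2234 CPM in oligomycin, a fold of 0.754 ± 0.00660 (SD, n = 3; edgeR adjusted p = 6.52e-07). The spread within each group was small beside the gap between them. Eno1, which makes phosphoenolpyruvate, fell to 0.771 ± 0.0143, Pkm, which makes pyruvate, to 0.796 ± 0.00497, and Pfkl, the liver form of phosphofructokinase, to 0.713 ± 0.0197 of DMSO (SD, n = 3 each). In the standard incubator 16 of the 21 fell and 1 rose, against 16.4% and 16.9% of all genes. The interaction was called higher for 10 and lower for 2, against 7.87% and 9.56% of all genes. The fall of Ldha and Pfkl was smaller in 5% oxygen, with interactions of 0.59 and 1.12. For Pkm the interaction of 0.14 (edgeR adjusted p = 0.043) was lost without any of 10 of the 12 libraries, with adjusted p between 0.0307 and 0.17.

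Hexokinase 2 and the muscle form of phosphoglycerate mutase departed from this pattern. Hk2, which traps glucose in the cell, was at 136, 126 and 119.7 CPM in DMSO and at 136, 121 and 115 CPM in oligomycin, with a log2 fold change of -0.04 (SE 0.09). Oligomycin raised it in the standard incubator from 49.6, 48.9 and 58.2 CPM to 181, 165 and 176 CPM, and the interaction was -1.77 (edgeR adjusted p = 1.6e-10). Pgam2 had a log2 fold change of 0.08 (SE 0.07) in 5% oxygen and of -0.92 (SE 0.07) in the standard incubator. Both genes thus had overlapping groups in 5% oxygen and separate groups in the standard incubator.

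Transcripts of mitochondrial DNA rose in 5% oxygen. Of the 13 genes 9 rose, 0 fell and 4 did not pass, by edgeR and by DESeq2's Wald test alike, with a median log2 fold change of 0.36. By edgeR 2.04% of all genes rose and 2.22% fell. At an unadjusted p under 0.05 edgeR gave 11 of the 13 higher and 0 lower. The summed level of the 13 was 9136, 8727 and 8890 CPM in DMSO and 11270, 11160 and 11200 CPM in oligomycin, with no overlap. The standard incubator gave 9 lower and 2 higher, against 16.4% and 16.9% of all genes. The sums there were 10140, 10460 and 10070 CPM in DMSO and 9099, 9433 and 8980 CPM in oligomycin. The interaction was called higher for 9 of the 13 and lower for 0, against 7.87% and 9.56% of all genes. Such transcripts share sequence with copies in the nuclear genome, and the libraries were unstranded, so reads may have been split between copies or between overlapping genes of the 2 strands.

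mt-Cytb, the cytochrome b of complex III, rose the most of those that passed, from 719, 708 and 723 CPM in DMSO to 1133, 1073 and 1130 CPM in oligomycin. This was 1.55-fold ± 0.0472 (SD, n = 3; edgeR adjusted p = 3.14e-10), while in the standard incubator its level was 0.924-fold ± 0.0169. The complex I subunits mt-Nd1 and mt-Nd4 rose 1.28-fold ± 0.0470 and 1.28-fold ± 0.0169, against 0.775-fold ± 0.0365 and 0.892-fold ± 0.0524 in the standard incubator (SD, n = 3 each). Complex IV subunits rose 1.21-fold ± 0.00179 for mt-Co1, 1.21-fold ± 0.0284 for mt-Co2 and 1.29-fold ± 0.0287 for mt-Co3 (SD, n = 3 each). Of these mt-Co1 and mt-Co2 also rose in the standard incubator, and the mt-Co1 interaction did not pass (0.10, SE 0.07). The mt-Co2 interaction of 0.18 was lost without replicate 3 of oligomycin in 5% oxygen or any of 4 libraries of the standard incubator, with edgeR adjusted p between 0.0191 and 0.0843. The ATP synthase subunit mt-Atp8 rose 1.30-fold ± 0.0415 (SD, n = 3), and mt-Atp6 had a log2 fold change of 0.25 (SE 0.11) that did not pass.

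The calls for mt-Nd3 and mt-Nd5 were less firm. mt-Nd3 read 70.3, 65.2 and 54 CPM in DMSO and 103, 82.8 and 105 CPM in oligomycin, and its edgeR adjusted p of 0.025 ran from 0.0196 to 0.139 without single libraries, with the call lost without replicate 1 or 3 of oligomycin or replicate 2 or 3 of DMSO. mt-Nd5 rose by 0.24 (SE 0.06) on the log2 scale and lost its call without replicate 3 of oligomycin or replicate 2 of DMSO, with an edgeR adjusted p of up to 0.0943. The 4 genes that did not pass were mt-Nd2, mt-Nd4l, mt-Nd6 and mt-Atp6. Among them mt-Nd2 stood at 142, 122 and 134 CPM in DMSO and 124, 120.2 and 140.3 CPM in oligomycin, which overlap. Without replicate 3 of both groups 7 of the 13 rose.

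**Figure D5:**
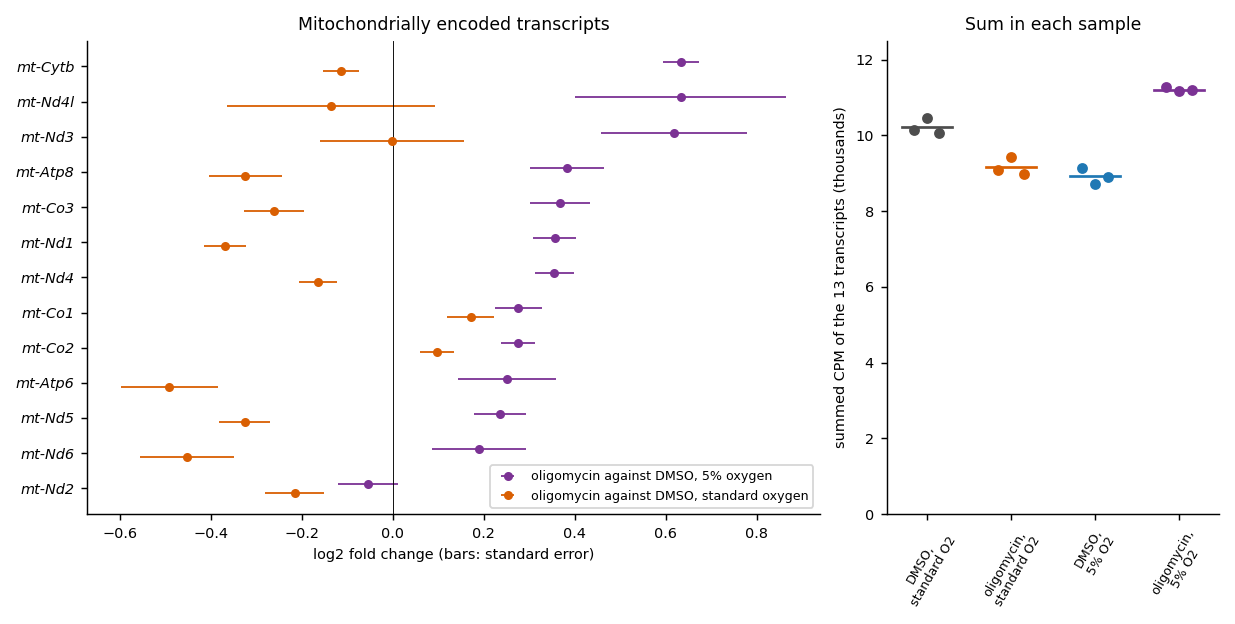
Left, log2 fold change of oligomycin against DMSO for the 13 mitochondrially encoded transcripts in 5% and in standard oxygen, with bars of 1 standard error; right, their summed CPM in each sample. In 5% oxygen 9 rose and the sums are 11160 to 11270 with oligomycin against 8727 to 9136 CPM in DMSO, whereas in standard oxygen the oligomycin sums of 8980 to 9433 lie below DMSO.

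Few nuclear genes of ATP synthase, mitochondrial chaperones and proteases, the complex I core and mitochondrial biogenesis were called in 5% oxygen. Of all genes 2.04% rose and 2.22% fell. Other nuclear genes for mitochondrial proteins were called, Mthfd2, Shmt2, Bnip3 and Ak4 among them. Of 16 nuclear ATP synthase genes 1 rose, Atp5g1, which encodes the ring subunit that oligomycin contacts, by 0.24 (SE 0.06) on the log2 scale. Its edgeR adjusted p was 0.0304 and reached 0.165 without single libraries, with the call lost for each library except replicate 2 of DMSO. Of 12 mitochondrial chaperones and proteases 1 rose in 5% oxygen, the protease Htra2 (log2 fold change 0.39, SE 0.09), a call lost without replicate 1 of DMSO at an adjusted p of 0.0504. Of these 12 genes 8 rose in the standard incubator, and the interaction was called lower for 6 and higher for 0. Of the 16 ATP synthase genes 6 fell and 0 rose in the standard incubator, and the interaction was called higher for 5 and lower for 0. Of 7 core subunits of complex I 1 rose (Ndufs8), and 0 did under each alternative run, single libraries left out included. In 5% oxygen none of 7 regulators of mitochondrial biogenesis was called by edgeR, by DESeq2's Wald test or at an unadjusted p under 0.05 (0 of 7 each). In the standard incubator 3 of the 7 rose and 1 fell, and the interaction was called higher for 1 and lower for 2. Of all genes 16.9% rose and 16.4% fell in the standard incubator, and the interaction was higher for 7.87% and lower for 9.56%.

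Of 17 genes of the endoplasmic reticulum chaperones and the XBP1 branch 7 fell, against 2.22% of all genes, 1 rose and 9 did not pass, with a median of -0.20. The 7 became 5 when only these 6 samples were fitted. In the standard incubator 11 fell and 1 rose, against 16.4% and 16.9% of all genes. Hspa5, the chaperone BiP, read 556, 544 and 511 CPM in DMSO and 393, 408 and 414 CPM in oligomycin, 0.754-fold ± 0.0200 (SD, n = 3; edgeR adjusted p = 2.68e-07). Hspa5 was at 1.01-fold ± 0.0476 in the standard incubator, and its interaction of -0.42 passed (edgeR adjusted p = 3.37e-06). Hsp90b1, another chaperone of this compartment, fell to 0.791 ± 0.0154 in 5% oxygen and 0.795 ± 0.0514 in the standard incubator, and Manf, a secreted survival factor, to 0.732 ± 0.00600 and 0.619 ± 0.0515 (SD, n = 3 each). The gene that rose was Herpud1, which serves protein disposal and is also an ATF4 target, by 0.19 (SE 0.05) on the log2 scale. Its call was lost without replicate 3 of oligomycin or replicate 3 of DMSO, with an edgeR adjusted p of up to 0.103, and 0.28 without replicate 3 of both groups.

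Of 11 tested immediate early genes, which respond within minutes to growth signals, 4 fell and 0 rose by edgeR and by DESeq2's Wald test. At an unadjusted p under 0.05 the counts were 5 and 0. By edgeR 2.22% of all genes fell and 2.04% rose. Ier3, an anti-apoptotic member, fell from 97.2, 102 and 95.2 CPM to 52.5, 51.7 and 56.6 CPM (0.547-fold ± 0.0270, SD, n = 3; edgeR adjusted p = 1.67e-07), while in the standard incubator its level was 0.940 ± 0.0817 and the interaction was -0.78. The AP-1 subunit Junb fell to 0.855 ± 0.00487 of DMSO (SD, n = 3). Jun and Egr1 fell by 0.27 and 0.26 on the log2 scale, and their calls were lost without 5 and 3 of the single libraries, with edgeR adjusted p of up to 0.116 and 0.0624. The Jun call held only without replicate 3 of oligomycin, and the Egr1 call was lost without replicate 2 of oligomycin or replicate 1 or 2 of DMSO. Myc, a growth regulator, had a log2 fold change of 0.00 (SE 0.09) in 5% oxygen and 1.74 (SE 0.09) in the standard incubator.

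Of 8 myogenic transcription factors 2 rose in 5% oxygen, Myod1 and Myf5, against 2.04% of all genes, and 1 rose when only these 6 samples were fitted or without the filter on low counts. None of the 8 myotube markers was called by edgeR or by DESeq2's Wald test, and 1 had an unadjusted p under 0.05. Of 24 sarcomere genes 1 rose (Myh4) and 1 fell (Tnni1), against 2.04% and 2.22% of all genes. The Myh4 call was lost without replicate 1 or 3 of DMSO or replicate 2 or 3 of oligomycin. Myod1, the factor that commits cells to muscle, rose to 1.18 ± 0.0106 in 5% oxygen and fell to 0.855 ± 0.0341 in the standard incubator (SD, n = 3 each; interaction 0.46, edgeR adjusted p = 5.16e-06). Myog, which drives fusion, read 1051, 1004 and 1029 CPM in DMSO and 1047, 1043 and 1088 CPM in oligomycin, whereas it rose 2.45-fold ± 0.0216 in the standard incubator. Myf5, a factor of early myoblasts and reserve cells, rose 1.62-fold ± 0.220 (SD, n = 3) from 7.81, 8.42 and 8.91 CPM.

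For each list count below, 2.04% of all genes rose and 2.22% fell in 5% oxygen. Of 12 tested p53 targets 2 rose. Eda2r, a receptor of the tumour necrosis factor family, rose to 1.47 ± 0.0683 of DMSO (SD, n = 3). Cdkn1a, the cell cycle inhibitor p21, rose by 0.18 (SE 0.05) on the log2 scale. The Cdkn1a call was lost without any of the 3 oligomycin libraries or replicate 3 of DMSO, with an edgeR adjusted p of up to 0.116. Of 15 proliferation genes 1 rose, the mitotic kinase Cdk1, at 7.81, 6.90 and 7.42 CPM in DMSO and 9.59, 10.5 and 14 CPM in oligomycin. That call was lost without replicate 3 of oligomycin or replicate 2 of DMSO, with an edgeR adjusted p of up to 0.123, and its interaction of 0.69 was lost without replicate 3 of oligomycin at 0.0531. Of 22 sterol synthesis genes 1 rose and 1 fell. Dhcr7, the last enzyme of cholesterol synthesis, rose 1.33-fold ± 0.0275 (SD, n = 3). Sqle, squalene epoxidase, fell by 0.25 (SE 0.06) on the log2 scale. In the standard incubator 13 of the 22 fell and 1 rose, against 16.4% and 16.9% of all genes. The Sqle call was lost without replicate 2 or 3 of oligomycin or replicate 1 or 2 of DMSO, with an edgeR adjusted p of up to 0.0713. Of 12 heat shock genes 2 fell, against 0 without replicate 1 of oligomycin, 1 when only these 6 samples were fitted and 3 without replicate 3 of DMSO or by DESeq2's Wald test. Of 10 tested genes of fatty acid oxidation 1 fell. None of 13 NRF2 antioxidant genes, 3 metallothionein and zinc genes, 5 atrophy genes or the 2 tested genes of the Txnip group was called by edgeR or by DESeq2's Wald test. At an unadjusted p under 0.05 the counts were 0, 0, 2 and 0.

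Outside the lists, the higher genes were led by Extl1, a glycosyltransferase of the exostosin family. It read 6.12, 6.43 and 6.37 CPM in DMSO and 16.9, 16.2 and 14.2 CPM in oligomycin, 2.50-fold ± 0.219 (SD, n = 3; edgeR adjusted p = 0.000137). Serpinb9g, a serine protease inhibitor of a large gene cluster whose members share sequence, rose 2.26-fold ± 0.242, and its value is uncertain where reads could be split among them. Slc1a3, a glutamate and aspartate transporter, read 18.4, 20.7 and 23.8 CPM in DMSO and 39.2, 40.0 and 47.2 CPM in oligomycin, 2.01-fold ± 0.209 (SD, n = 3). In the standard incubator Slc1a3 rose 1.23-fold ± 0.250 (edgeR adjusted p = 0.0287), with an interaction of 0.70 (edgeR adjusted p = 0.00197). Its groups overlapped there, at 45.68, 40.96 and 44.74 CPM in DMSO and 65.45, 52.68 and 43.66 CPM in oligomycin. Its DMSO level in 5% oxygen was 0.479 ± 0.0626 (SD, n = 3) of that in standard oxygen, and its level with oligomycin in 5% oxygen was 0.962 ± 0.1003 of the same reference. Hopx and Myo19 were also lower in DMSO in 5% than in standard oxygen, at 0.693 ± 0.123 and 0.378 ± 0.0441 (SD, n = 3 each). Hopx, a homeodomain protein that does not bind DNA, rose 1.92-fold ± 0.331 (SD, n = 3) in 5% oxygen, and its interaction of 0.67 (edgeR adjusted p = 0.0468) was lost without any of 8 of the 12 libraries, with adjusted p between 0.0176 and 0.13. Myo19, a myosin that moves mitochondria, was at 3.59, 4.16 and 3.32 CPM in DMSO and 9.37, 6.02 and 7.17 CPM in oligomycin. The Myo19 call was lost without replicate 1 or 3 of either group, with an edgeR adjusted p of up to 0.14, and its interaction of 1.17 without 5 of the 12 libraries, with an adjusted p of up to 0.104.

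Among the lower genes the rule put first Car12, a membrane carbonic anhydrase, which fell from 38, 30.1 and 36.4 CPM to 16.6, 14 and 19.2 CPM (0.477-fold ± 0.0755, SD, n = 3; edgeR adjusted p = 0.00777). That call was lost without replicate 2 of oligomycin, at 0.0597. Ctgf, a secreted growth factor of connective tissue, read 129, 131 and 141 CPM in DMSO and 69.4, 73.3 and 56 CPM in oligomycin, and Vwa1, a matrix protein, 85.1, 79.6 and 85.7 CPM against 41.6, 46.8 and 41.2 CPM. Both pairs of groups were widely separate, at 0.495-fold ± 0.0676 and 0.518-fold ± 0.0374 (SD, n = 3 each). Ak4, an adenylate kinase of the mitochondrial matrix, fell to 0.532 ± 0.0628, and Asb2, a ubiquitin ligase subunit of muscle, to 0.526 ± 0.0138 of DMSO (SD, n = 3 each). Ak4 and Asb2 fell further in the standard incubator, to 0.123 ± 0.0457 and 0.169 ± 0.0414, and their interactions of 2.13 and 1.63 passed. In DMSO the level in 5% oxygen was 7.155-fold that in standard oxygen for Car12, 2.37 for Ctgf, 5.81 for Vwa1, 7.25 for Ak4 and 1.79 for Asb2. With oligomycin in 5% oxygen it was 3.41, 1.17, 3.01, 3.86 and 0.939 of the same reference.

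The remaining lower genes rest on less firm calls. The vasoconstrictor peptide Edn1 had a fold of 0.494 ± 0.0542 (SD, n = 3), but its call did not hold when any single library was left out, with an edgeR adjusted p of 0.0549 to 0.15. Galr2, a galanin receptor, had a fold of 0.483 ± 0.127 (SD, n = 3), and its call was lost without replicate 1 or 2 of either group, with an adjusted p of up to 0.199. Nrn1, a neurite growth protein, fell to 0.514 ± 0.102 (SD, n = 3), a call lost without replicate 1 of either group at an adjusted p of up to 0.0553. Cdh23, a cadherin, fell to 0.540 ± 0.0735 (SD, n = 3) and lost its call without replicate 1 or 2 of oligomycin or replicate 3 of DMSO, with an adjusted p of up to 0.167. In DMSO the level in 5% oxygen was 3.03-fold that in standard oxygen for Edn1, 5.485 for Galr2, 3.45 for Nrn1 and 1.03 for Cdh23.

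Of the 255 genes higher in 5% oxygen 136 (53.3%) were also higher in the standard incubator, 31 were lower there and 88 were not called. Of all genes 16.9% were higher and 16.4% lower in the standard incubator. These 136 were 6.4% of the 2117 genes higher in the standard incubator, where 2.04% of all genes were higher in 5% oxygen. Of the 277 genes lower in 5% oxygen, which were 2.22% of all genes, 176 (63.5%) were also lower in the standard incubator. These were 8.6% of the 2047 genes lower there. Of the 277 genes 29 were called in the opposite direction and 72 were not called. The interaction passed for 46 of the 88 and 34 of the 72 genes called in 5% oxygen alone, so for the others a difference between the oxygen levels was not shown. Over all genes the interaction passed for 2177 (17.4%), 983 higher and 1194 lower. Of these 897 (41.2%) had the same sign at both levels and a smaller change in 5% oxygen, 21 (1.0%) the same sign and a larger change, and 1259 (57.8%) opposite signs, of which 60 were called at both levels. The SD of the log2 fold changes over all genes was 0.313 in 5% oxygen and 0.596 in the standard incubator. Their Pearson correlation between the 2 oxygen levels was 0.215.

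Of the 5 genes named for the highest interactions 4 were called in the standard incubator and not in 5% oxygen. Scml4, related to Polycomb proteins, read 11.2, 14.3 and 14.1 CPM in DMSO and 17.2, 15.5 and 18.6 CPM in oligomycin in 5% oxygen, against 54, 52.6 and 57.5 CPM and 3.63, 3 and 3.53 CPM in the standard incubator. Follistatin, Fst, a secreted binder of activin and myostatin, had overlapping groups in 5% oxygen at 68.8, 93.7 and 63 CPM and 93.3, 82.8 and 56.5 CPM, and fell in the standard incubator to 0.113 ± 0.0158 of DMSO (SD, n = 3). The small membrane protein Smim5 had a log2 fold change of -0.06 (SE 0.13) in 5% oxygen and -3.80 (SE 0.17) in the standard incubator. The receptor Gpr35 had log2 fold changes of -0.49 (SE 0.15) and -3.97 (SE 0.27), and in 5% oxygen it passed only when replicate 3 of oligomycin was left out (edgeR adjusted p = 0.0651 and 0.0487). Grhl3, a transcription factor of the grainyhead family, rose by 0.73 (SE 0.16) in 5% oxygen and fell by 2.08 in the standard incubator, both of which passed.

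Among the genes with the lowest interactions beside Atf3, Ptgs2, the inducible cyclooxygenase, changed in opposite directions. It read 29, 27.7 and 27 CPM in DMSO and 17.2, 19 and 16.1 CPM in oligomycin in 5% oxygen, and rose 9.18-fold ± 1.14 (SD, n = 3) in the standard incubator, with an interaction of -3.87 (edgeR adjusted p = 1.87e-14). The cell adhesion protein Cdsn had log2 fold changes of 0.71 (SE 0.16) in 5% oxygen and 5.01 (SE 0.16) in the standard incubator. Its call in 5% oxygen was lost without replicate 1 of oligomycin or replicate 3 of DMSO, with an edgeR adjusted p of up to 0.0645. B3gnt5, a glycosyltransferase, was at 0.528 to 1.99 CPM in all 6 samples in 5% oxygen and reached 18.5, 14.9 and 13.2 CPM with oligomycin in the standard incubator. Its mean count in 5% oxygen was 13 reads. The secreted carbonic anhydrase Car6 was at 0.284 to 0.699 CPM in DMSO and 1.43 to 1.76 CPM in oligomycin in 5% oxygen, and at 22.5, 19 and 21.1 CPM with oligomycin in the standard incubator. The Car6 call in 5% oxygen was lost without any of 5 of the 6 libraries, replicate 3 of DMSO being the exception, with an edgeR adjusted p of up to 0.16. Its mean count in 5% oxygen was 10.2 reads. B3gnt5 and Car6 reached the mean of 50 counts required of a named gene only through the oligomycin samples of the standard incubator, where they are high, so their interactions are given as a description.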

How the data were processed

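Polyadenylated RNA of C2C12 cells was sequenced by the authors as unstranded Smart-seq2 libraries on 2 flow cells. Per the labels reads were demultiplexed with bcl2fastq 2.20.0.422 and quantified with kallisto 0.44, and per the methods transcripts of GRCm38 were summed to genes with tximport. The deposited values are estimated counts as whole numbers, one column per sample.

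Groups came from the sample labels. Differences were tested with edgeR 4.0.16 in R 4.3.3 (TMM scaling, quasi-likelihood F test) on the 27 untransduced myotube samples of 9 groups, which share one estimate of the spread, for the 12491 of 54150 rows in which all replicates of some group held 16 counts or more, with Benjamini-Hochberg adjustment at 0.05. Each SE was obtained by dividing the size of a log2 fold change by the root of its F statistic. CPM are TMM-scaled. Totals of the 6 samples were 8661421 to 11835417, which leaves folds of genes with few counts imprecise. The gene lists and the members were chosen with earlier results of these data known, so no p was adjusted over a list. Named genes outside the lists were, among those called, up to 10 per direction (5 for the interaction) with the largest log2 fold change, a mean of at least 50 counts and, for the main comparison, groups that did not overlap. 1 gene that met this rule is not reported here. Alternatives were DESeq2 1.42.0 size factors and its Wald test, no filter, the groups compared alone, a replicate block and leaving out each replicate. The scripts were tested on simulated data.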

Additional observations from a re-analysis of the deposited data

Results flagged for a closer look

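The oligomycin response differed between 5% oxygen and the standard incubator for 2177 genes by edgeR's quasi-likelihood interaction test with Benjamini-Hochberg adjustment at 0.05, among them 80 of the 112 tested genes named in the text. The values that follow are log2 fold changes of oligomycin against DMSO in 5% oxygen minus those in the standard incubator, each of which passed this test, and no cause was tested.

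Among ISR genes all named differences were negative. The transcription factors gave -1.34 for Atf4, -3.98 for Atf3, -3.23 for Ddit3, -1.34 for Cebpg and -1.49 for Nupr1. The feedback genes gave -3.04 for Ppp1r15a, -3.24 for Trib3, -1.63 for Chac1, -1.86 for Sesn2 and -1.28 for Eif4ebp1, and the mitokines -1.57 for Fgf21 and -3.23 for Gdf15. The synthesis enzymes gave -1.09 for Asns, -0.52 for Phgdh, -0.27 for Psat1, -0.89 for Shmt2, -0.99 for Mthfd2, -1.81 for Mthfd1l, -1.49 for Aldh1l2, -1.24 for Psph and -3.16 for Cth. Slc3a2 and Slc6a9 gave -1.37 and -1.45, and Wars and Gars -1.29 and -0.95.

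HIF targets and glycolysis genes took both signs. The difference was 1.81 for Ankrd37, 0.88 for Bnip3, -0.32 for P4ha2, -0.66 for Ndrg1, -1.21 for Vegfa, -1.1 for Ero1l and -0.93 for Slc2a1. It was 0.59 for Ldha, 0.34 for Eno1, 0.14 for Pkm, 1.12 for Pfkl, -1.77 for Hk2 and 1.0 for Pgam2.

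Mitochondrially encoded transcripts had positive differences of 0.75 for mt-Cytb, 0.72 for mt-Nd1, 0.52 for mt-Nd4, 0.56 for mt-Nd5, 0.64 for mt-Nd6, 0.18 for mt-Co2, 0.63 for mt-Co3, 0.74 for mt-Atp6 and 0.71 for mt-Atp8. The mitochondrial tRNA synthetase Tars2 gave -0.37, which was lost without any of 8 of the 12 libraries, with an adjusted p of up to 0.0866. In the endoplasmic reticulum Hspa5 and Herpud1 gave -0.42 and -0.78. Of the immediate early genes Ier3 gave -0.78, Junb 0.34, Egr1 0.59 and Myc -1.74. The myogenic factors gave 0.46 for Myod1, -1.25 for Myog and -0.8 for Myf5, and the growth control genes -0.46 for Eda2r, 0.29 for Cdkn1a and 0.69 for Cdk1.

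Outside the lists the difference was -1.68 for Extl1, -1.62 for Serpinb9g, 1.17 for Myo19, 0.7 for Slc1a3, 0.67 for Hopx, 1.63 for Asb2 and 2.13 for Ak4. The genes named for their interaction gave 4.38 for Scml4, 3.75 for Smim5, 3.48 for Gpr35, 3.19 for Fst, 2.81 for Grhl3, -5.36 for Car6, -4.3 for Cdsn, -4.22 for B3gnt5 and -3.87 for Ptgs2. In 5% oxygen Car6 and B3gnt5 were at a mean of 10.2 and 13 counts, and their values are a description. The genes with opposite directions gave -1.58 for Dhrs3, -1.96 for Vldlr, 1.57 for Mest and 1.42 for Lix1.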

How the results depend on the processing

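The count of 532 genes called for oligomycin in 5% oxygen became 263 (99 higher, 164 lower) when only these 6 samples were fitted, so that the spread was estimated from 2 groups, and 300 (125 higher, 175 lower) without replicate 3 of both groups, an alternative chosen after seeing the data. DESeq2's Wald test gave 535, DESeq2's size factors in edgeR 536 and no filter on low counts 487. Leaving out single libraries gave 367 to 411 genes for oligomycin in 5% oxygen, 3510 to 3899 for the standard incubator, 1847 to 2178 for the interaction and 2254 to 2422 for 5% oxygen in DMSO. With the replicate number as a block the counts were 506, 4114, 2135 and 2694, and among the 112 tested genes named in the text the block ended 1 call, that of Ndufs8 in 5% oxygen. Whether the numbers pair the samples was not settled. Deviations of same-numbered DMSO and oligomycin samples in 5% oxygen correlated at 0.0373, 0.194 and 0.326 across genes. For replicate 3 this was above its pairs with other numbers, at -0.309 to -0.0654. Replicates 1 and 2 did not separate by number: DMSO replicate 1 correlated at 0.044 with oligomycin replicate 2, and DMSO replicate 2 at 0.191 with oligomycin replicate 1. Among the 112 genes, no alternative turned the direction of a call, 19 lost the call in 5% oxygen when only the 6 samples were fitted, a fit whose filter left out Car6 and B3gnt5, as did 19 without replicate 3 of both groups, and the call of the interaction was lost for at most 5 under any single alternative. The cause was not tested. Vegfa, Gdf15, Myo19 and Car6 had low levels in 5% oxygen, and the part of depth in their calls was not tested.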

Other observations

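Some genes outside the lists moved in opposite directions with oligomycin at the 2 oxygen levels. These were picked after their values were seen from the 60 genes called at both levels with opposite signs, 31 higher in 5% oxygen and 29 lower, and no cause was tested. Dhrs3, which reduces retinaldehyde, had a log2 fold change of -0.75 in 5% oxygen and 0.83 in the standard incubator. Vldlr, a lipoprotein receptor, stood at -0.51 and 1.45. Mest, an imprinted gene of the mesoderm, rose by 0.86 in 5% oxygen and fell by 0.71 in the standard incubator, and Lix1 had values of 0.81 and -0.61.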
